A study of Mus musculus with 36 samples.

Results

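Ketone body synthesis and export was followed in mouse liver through 6 genes: the thiolase Acat1, the dehydrogenases Bdh1 and Bdh2, and the carriers Slc16a1, Slc16a7 and Slc16a6. They were found as the array probes, other than controls, that carry one of these 6 symbols, which gave 12 probes of 56605 and 6 genes of 37325. All 6 genes passed the filter on dim probes, as did 24251 genes of the array. The livers came from 36 male C57Bl/6J mice, with 1 one-colour Agilent array per mouse and 6 mice in each of 6 groups. AAKO mice lack ATGL, the lipase that releases fatty acids from stored triglyceride, in white adipose tissue, and CTRL mice are their controls. CTRL fed and AAKO fed mice ate freely, and CTRL fasted and AAKO fasted mice had no food for 24 h. CTRL CL316243 and AAKO CL316243 mice ate freely and received 1 dose of 3 mg/kg CL316243, a beta 3 adrenergic agonist that drives fat breakdown in adipocytes, by gavage at Zeitgeber time 10. Livers of all groups were taken at Zeitgeber time 16. The mice's age and the driver of the deletion were not given in the sources used here. The deletion lies in adipose tissue, so no liver transcript checks the genotype labels.

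Ketone bodies are made in liver mitochondria when fatty acids arrive from adipose tissue faster than the citric acid cycle takes up their acetyl-CoA. Thiolases join acetyl-CoA to acetoacetyl-CoA, from which acetoacetate is made, and BDH1 reduces acetoacetate to beta-hydroxybutyrate. Both acids leave the hepatocyte through monocarboxylate carriers of the SLC16 family and serve as fuel for brain, heart and muscle during a fast. Hepatocytes themselves are held to lack the transferase needed to burn them.

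Each gene is given by the probe with the highest mean over the arrays. The probes of Bdh1 and Slc16a7 are shown because these genes were read by more than 1 probe, and those of Acat1 and Slc16a1 because their results carry the comparison of genotypes. Positions are on mm9 as the array files give them, and 30 of the 60 bases of each probe are printed, the first 30 unless stated. Bdh1 (chr16:31457378-31457437, plus strand) was read by A_51_P163106 and, 69 bases upstream of it, by A_55_P2181753 (chr16:31457249-31457308, plus strand). Acat1 was read at chr9:53389868-53389927 on the minus strand, and Slc16a1 at chr3:104460941-104461000 on the plus strand. The Slc16a7 probe used for the gene lies at chr10:124664784-124664843 on the minus strand. Its neighbour A_55_P2743720, shown by its last 30 bases, covers chr10:124664842-124664901, and the 2 bases that both probes cover are in capitals. A_55_P2394490 lies 8367 bases further towards the transcript's 3′ end (chr10:124656357-124656416), and A_55_P2173358 lies 160751 bases towards the 5′ side (chr10:124825595-124825654), both on the minus strand.
Bdh1, A_51_P163106: tgggtggccctaaacctcagggccaatatg
Bdh1, A_55_P2181753: gtttaccttttgattagctgttgaggatta
Acat1, A_51_P319449: aataatctaacatccatggacttctattct
Slc16a1, A_51_P397367: atgggttcagtgtaaggataagaggaaaga
Slc16a7, A_51_P466633: TGctcatctgcgcacctgagttgtgatgaa
Slc16a7, A_55_P2743720: gaaggtgcacgtagaaaacccacgcactTG
Slc16a7, A_55_P2394490: ccacatgtaaggacgcttctttgcctggat
Slc16a7, A_55_P2173358: cttccctgctggcttctgcattctttactt
Coding sequence and UTR are not marked in the array files. They place A_51_P466633 at base 2116 of its target transcript, A_55_P2394490 at base 10416 and A_55_P2173358 at base 397 of theirs, and the files name a different target transcript for each of these 3, while A_55_P2743720 shares the target of A_51_P466633. Whether the targets share the probes' sequence was not tested. Bdh2 was read at chr3:134967309-134967368 on the plus strand, and Slc16a6 at chr11:109314058-109314117 on the minus strand.

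Levels are log2 signals minus the array's own 75th percentile, so 0 is the brightness of that percentile. The probes that stand for the 6 genes were well above background on all 36 arrays. Between 35770 and 39868 spots per array were well above background. The hepatocyte markers Alb, Apoa1, Cps1, Serpina1a, Tat and Ttr were well above background on every array. The fed groups belong to another experiment than the fasted and CL316243 groups, and in any comparison with fed mice the experiment cannot be told apart from the condition. An experiment effect shared by both genotypes cancels in the interactions. A gavage time is given for CL316243 mice alone, so gavage or vehicle and the agonist cannot be told apart. CTRL fasted replicate 2 stood apart: it lay at 81.3 on the first principal component of all genes, where the other 5 CTRL fasted arrays lay between 16.8 and 29.0 and the AAKO fasted arrays between 102.8 and 110.8. Results that use CTRL fasted are therefore given with and without it where that matters. In tissue RNA, fewer cells of a type and less RNA per cell cannot be told apart.

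A gene is called at a limma p-value under 0.05 after Benjamini-Hochberg adjustment over the 24251 genes, and differences are log2 values with the standard error of the fit. In fasted mice 4 of the 6 genes were called between AAKO and CTRL, Acat1, Bdh1 and Slc16a1 lower and Slc16a6 higher in AAKO, against 49.3% of all genes, so the count of calls was near the share over the array. The median difference of the 6 genes was -0.57, against -0.04 over all genes tested. After CL316243, Acat1, Bdh1, Slc16a1 and Slc16a7 were lower in AAKO (4 of 6, against 24.7% of all genes), with a median of -0.74 against 0.03 over all genes. In fed mice none of the 6 was called, against 0.0783% of all genes. At an unadjusted p under 0.05 the fed comparison had 1 of the 6, Acat1, against 6.78% of all genes.

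Acat1 encodes mitochondrial acetoacetyl-CoA thiolase, the first step of the pathway. In fed mice its level ran from 3.92 to 4.27 (median 3.96) in CTRL and from 3.59 to 3.90 (median 3.76) in AAKO. In fasted mice it ran from 4.14 to 4.78 (median 4.48) in CTRL and from 2.16 to 2.91 (median 2.51) in AAKO. After CL316243 it ran from 4.10 to 4.57 (median 4.23) in CTRL and from 3.55 to 3.83 (median 3.68) in AAKO. The genotypes did not overlap in any of the 3 conditions, and every AAKO fasted liver lay below every other liver of the study. The AAKO difference was -1.96 ± 0.10 in fasted mice (3.90-fold lower, adjusted p = 8.81e-16) and -0.59 ± 0.10 after CL316243 (1.50-fold lower, adjusted p = 4.15e-05). In fed mice it was -0.28 ± 0.10 (95% interval -0.48 to -0.08, adjusted p = 0.513), which was not called. Within wash batch 1 and wash batch 2, each of which holds arrays of every group, the fasted difference was -2.02 and -1.90.

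Bdh1 encodes the mitochondrial enzyme that makes beta-hydroxybutyrate, and it was the gene of the 6 that differed most between fasted genotypes. In fed mice its level ran from 4.94 to 5.39 (median 5.26) in CTRL and from 4.31 to 5.12 (median 4.88) in AAKO. In fasted mice it ran from 3.79 to 5.19 (median 5.06) in CTRL and from 0.38 to 2.31 (median 1.06) in AAKO. After CL316243 it ran from 5.58 to 5.95 (median 5.73) in CTRL and from 4.21 to 4.86 (median 4.59) in AAKO. The 6 AAKO fasted livers were the lowest of all 36, and the 6 CTRL CL316243 livers were the highest. The AAKO difference in fasted mice was -3.67 ± 0.24 (12.7-fold lower, adjusted p = 2.87e-13). Only 16 of the 24251 genes tested had a more negative difference. After CL316243 it was -1.15 ± 0.25 (2.23-fold lower, adjusted p = 0.000671), again with no overlap. In fed mice it was -0.40 ± 0.24 (95% interval -0.90 to 0.10, adjusted p = 0.799) and the ranges overlapped.

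The lowest CTRL fasted value of Bdh1, 3.79, was that of replicate 2, and the other 5 arrays lay between 4.94 and 5.19. Without that array the fasted difference was -3.89 ± 0.22. Within AAKO fasted mice the arrays of wash batch 1 were at 1.00, 0.38 and 0.45 and those of wash batch 2 at 1.12, 1.93 and 2.31. The fasted difference was -4.48 within wash batch 1 and -2.85 within wash batch 2, with adjusted p of 5.13e-10 and 9.88e-05 in limma fits of the 19 and 17 arrays of these batches. Within wash batch 2 the CL316243 difference was -1.06 and was not called (adjusted p = 0.123). That batch holds only replicates 3 and 4 of AAKO CL316243. The second probe, A_55_P2181753, gave -3.49 ± 0.24 in fasted mice and -1.14 ± 0.24 after CL316243, close to the values of the first.

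Bdh2 encodes a cytosolic dehydrogenase of the short-chain family, named for its likeness to BDH1 and also known for a role in siderophore synthesis. Its level in fed mice ran from 2.92 to 3.46 (median 3.24) in CTRL and from 2.32 to 3.23 (median 3.13) in AAKO. In fasted mice it ran from 0.74 to 2.02 (median 1.41) in CTRL and from 1.05 to 2.01 (median 1.68) in AAKO. After CL316243 it ran from 2.26 to 2.96 (median 2.48) in CTRL and from 1.83 to 2.54 (median 2.39) in AAKO. The genotypes overlapped in every condition, and the means of the fasted groups were the lowest, although AAKO CL316243 livers reached down to 1.83, within the fasted ranges. The AAKO difference was -0.24 ± 0.20 in fed mice, 0.26 ± 0.20 in fasted mice and -0.30 ± 0.20 after CL316243. None was called (adjusted p = 0.849, 0.282 and 0.288), and the intervals ran from -0.64 to 0.16, from -0.14 to 0.66 and from -0.70 to 0.10.

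Slc16a1 encodes MCT1, the widespread carrier of lactate, pyruvate and ketone bodies. In fed mice its level ran from 2.02 to 2.77 (median 2.24) in CTRL and from 2.14 to 2.61 (median 2.45) in AAKO. In fasted mice it ran from 3.23 to 3.87 (median 3.68) in CTRL and from 2.67 to 3.06 (median 2.82) in AAKO. After CL316243 it ran from 3.13 to 3.43 (median 3.22) in CTRL and from 1.69 to 2.47 (median 2.14) in AAKO. The genotypes overlapped when fed and were fully apart after fasting and after CL316243. The AAKO difference was -0.75 ± 0.13 in fasted mice (1.69-fold lower, adjusted p = 8.44e-06), -1.08 ± 0.13 after CL316243 (2.12-fold lower, adjusted p = 1.59e-07) and 0.08 ± 0.13 in fed mice (adjusted p = 0.936). Within the wash batches it was -0.74 and -0.77 in fasted mice and -1.16 and -0.96 after CL316243, called in each.

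Slc16a7 encodes MCT2, a carrier of high affinity for monocarboxylates. In fed mice its level ran from 0.95 to 1.66 (median 1.51) in CTRL and from 0.68 to 1.63 (median 1.46) in AAKO. In fasted mice it ran from 1.45 to 2.61 (median 2.03) in CTRL and from 1.39 to 2.22 (median 1.64) in AAKO. After CL316243 it ran from 0.70 to 1.36 (median 1.02) in CTRL and from -0.32 to 0.52 (median 0.20) in AAKO. The genotypes were apart only after CL316243, where AAKO livers were the lowest of all groups. The AAKO difference after CL316243 was -0.90 ± 0.16 (1.86-fold lower, adjusted p = 0.000108). It was -0.38 ± 0.16 in fasted mice (adjusted p = 0.0523) and -0.08 ± 0.16 in fed mice (adjusted p = 0.959), neither called. Within wash batch 2, with only replicates 3 and 4 of AAKO CL316243, the CL316243 difference was -0.71 and missed the threshold (adjusted p = 0.0666).

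The probes of Slc16a7 did not all behave alike. After CL316243, A_55_P2743720 and A_55_P2394490 were also lower in AAKO, at -0.92 ± 0.17 and -1.44 ± 0.20. A_52_P408736 was well above background on 3 of 6 CTRL and 1 of 6 AAKO arrays of that comparison, so its difference is not given. A_55_P2173358, the probe near the 5′ side, was at 0.09 ± 0.13 (adjusted p = 0.666 over the 36550 probes tested, of which 23.9% were called). In fasted mice the 3′ probe A_55_P2394490 was called at -0.88 ± 0.20 (adjusted p = 0.000459), while the other 3 probes that were well above background on all 36 arrays lay between -0.38 and -0.24 and were not called (50.2% of all probes were). Dim A_52_P408736 was well above background on 6 of 6 CTRL fasted and 5 of 6 AAKO fasted arrays. Its means were -4.26 and -4.86, so it too was lower in AAKO. The sixth probe, A_55_P1990693, was well above background on 2 of the 36 arrays and was left out by the filter. With the mean of the 5 probes, dim A_52_P408736 included, in place of the brightest, the fasted AAKO difference was -0.49 (adjusted p = 0.00162) and the fasted against fed difference in AAKO was 0.03.

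Slc16a6 encodes MCT7, a carrier linked to the export of beta-hydroxybutyrate from liver. In fed mice its level ran from 1.17 to 1.72 (median 1.43) in CTRL and from 0.82 to 1.88 (median 1.63) in AAKO. In fasted mice it ran from 0.44 to 2.84 (median 1.58) in CTRL and from 2.25 to 2.95 (median 2.35) in AAKO. After CL316243 it ran from 1.94 to 2.48 (median 2.07) in CTRL and from 1.41 to 2.59 (median 2.03) in AAKO. CTRL fasted livers were widely spread (SD 0.84, n = 6), replicate 2 was the highest of them at 2.84, and they overlapped AAKO. The fasted AAKO difference was 0.74 ± 0.25 (1.67-fold higher, adjusted p = 0.0152), and without replicate 2 it was 0.96 ± 0.24 (adjusted p = 0.000986). It was lost without CTRL fasted replicate 5 (0.50, adjusted p = 0.0724) or without AAKO fasted replicate 6 (0.62, adjusted p = 0.0507). It was also lost within each wash batch (0.97 and 0.51, adjusted p = 0.0818 and 0.204) and in a fit of the 2 groups alone (adjusted p = 0.0960). In fed mice and after CL316243 the difference was 0.10 ± 0.25 and -0.05 ± 0.25, neither called.

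**Figure D1:**
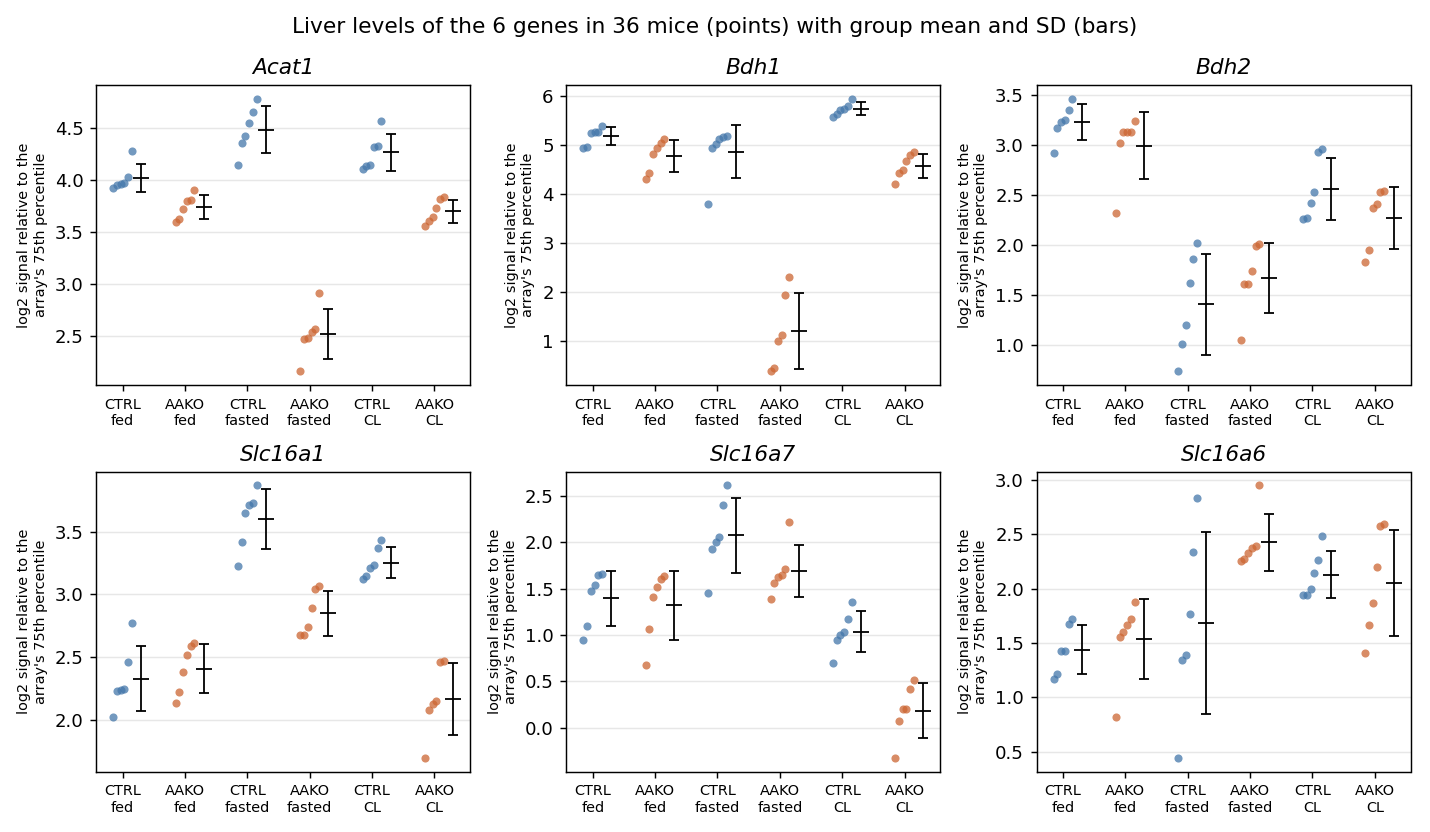
Log2 signal minus the array's 75th percentile (vertical axis) of the 6 genes in the 6 groups (CL, CL316243). Each point is 1 mouse, sorted by level within its group, and the bars are mean and SD (n = 6). AAKO fasted livers form a separate low group for Acat1 (2.16 to 2.91) and Bdh1 (0.38 to 2.31), and CTRL fasted livers are widely spread for Slc16a6 (0.44 to 2.84).

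**Figure D2:**
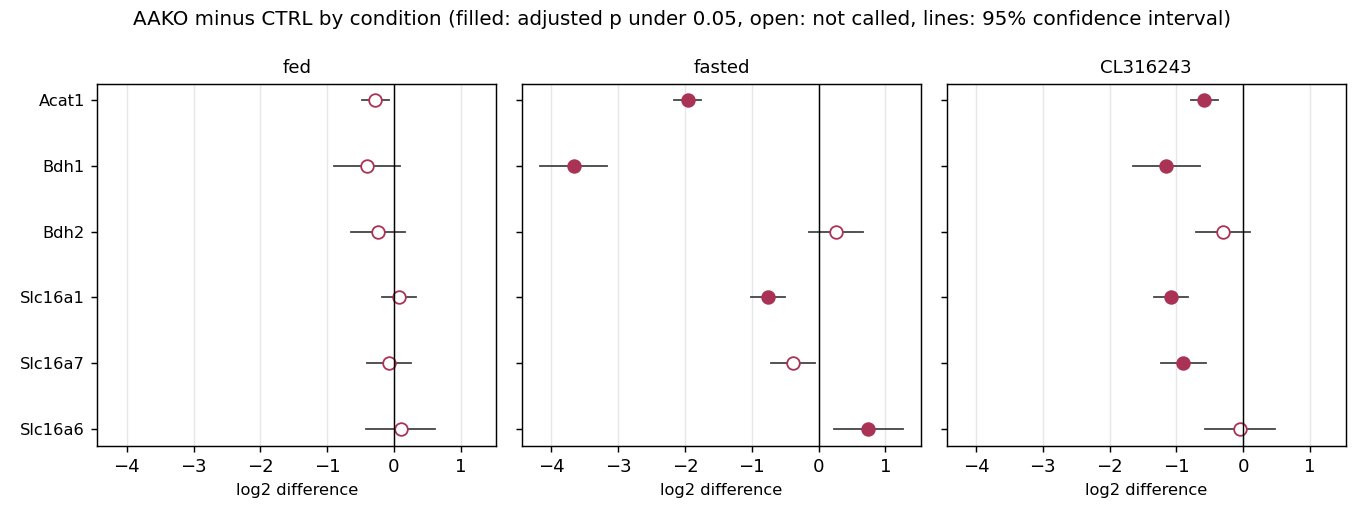
AAKO minus CTRL on the log2 scale (horizontal axis) for each gene in fed, fasted and CL316243 mice. Points are estimates, lines 95% confidence intervals and filled points calls at an adjusted p under 0.05. No gene is called in fed mice, and Bdh1 in fasted mice lies farthest from 0 at -3.67.

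The transcripts of other cell types were checked beside these differences. The 4 neutrophil markers Ngp, Retnlg, S100a8 and S100a9 were all higher in AAKO fasted than in CTRL fasted livers, with a median difference of 3.49, or 4.38 without CTRL fasted replicate 2. Their mean level per array ran from -4.80 to 2.18 in CTRL fasted and from -0.93 to 2.82 in AAKO fasted livers. Of the markers of the other types, 2 of 5 for endothelium, 2 of 5 for stellate cells and 1 of 4 for adipocytes were higher in AAKO fasted livers, and 2 of 4 for cholangiocytes, 1 of 4 for adipocytes, 1 of 3 for erythroid cells and 1 of 3 for lymphocytes were lower. None of 6 markers of Kupffer cells and macrophages was called, or 1 of 6 without CTRL fasted replicate 2. Of the hepatocyte markers, 2 of 6 were higher and 3 of 6 lower, with a median of -0.09. Of all genes, 49.3% were called between fasted genotypes, or 51.8% without CTRL fasted replicate 2. Between genotypes after CL316243 none of the 4 neutrophil markers was called, with a median of 1.79. There 2 of 5 endothelial markers were higher and 1 of 4 cholangiocyte markers lower in AAKO, against 24.7% of all genes called. Beside CL316243 against fed mice, Kupffer cell markers were lower for 4 of 6 in CTRL and 5 of 6 in AAKO and stellate cell markers for 4 of 5 in each. Endothelial markers were lower there for 4 of 5 in CTRL and 2 of 5 in AAKO, and erythroid markers for 2 of 3 and 3 of 3. The share of all genes called was 23.3% in CTRL and 31.4% in AAKO. Beside fasting in AAKO mice, all 4 neutrophil markers were higher (median 3.39), and 3 of 3 erythroid and 3 of 6 Kupffer cell markers were lower. The share of all genes called was 63.5%. Beside fasting in CTRL mice none of the 4 neutrophil markers was called (median 0.96, or 0.09 without CTRL fasted replicate 2). There 2 of 6 Kupffer cell markers were lower, or 4 of 6 without that array. The share of all genes called was 43.3%, or 41% without that array. Beside fasted against CL316243 mice, 3 of 5 stellate cell and 3 of 5 endothelial markers were higher in each genotype. All 4 neutrophil markers were higher in AAKO (median 3.03). The share of all genes called was 36.8% in CTRL and 59.9% in AAKO. The part of other cell types in the results of the 6 genes was not tested.

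The comparisons of fasted and of CL316243 mice with fed mice share the fed arrays. In CTRL mice 4 of 6 genes were called on fasting (43.3% of all genes). Slc16a1 rose by 1.27 ± 0.13 (2.42-fold, adjusted p = 1.11e-09), with all 6 fasted livers above all 6 fed ones. Slc16a7 rose by 0.68 ± 0.16 (adjusted p = 0.000987) and Acat1 by 0.47 ± 0.10 (adjusted p = 0.000247), both with overlap. Within wash batch 1 these values were 0.56 and 0.49 and were not called (adjusted p = 0.143 and 0.0513 in limma). The mean of Slc16a7 probe A_55_P2173358 went down, from -3.03 to -3.22. Those of A_55_P2743720 (1.35 to 2.01), A_55_P2394490 (0.29 to 0.97) and dim A_52_P408736 (-5.04 to -4.26) went up. Bdh2 fell by 1.82 ± 0.20 (3.54-fold, adjusted p = 5.48e-09) with no overlap. Bdh1 was at -0.31 ± 0.24 (adjusted p = 0.324, or -0.09 without replicate 2) and Slc16a6 at 0.25 ± 0.25 (adjusted p = 0.461).

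In AAKO mice all 6 genes were called on fasting (63.5% of all genes). Bdh1 fell by 3.58 ± 0.24 (11.9-fold, adjusted p = 6.02e-14), Bdh2 by 1.32 ± 0.20 (adjusted p = 5.80e-07) and Acat1 by 1.22 ± 0.10 (adjusted p = 2.51e-12), with no overlap for any of them. Slc16a6 rose by 0.89 ± 0.25 (adjusted p = 0.00282) and Slc16a1 by 0.44 ± 0.13 (adjusted p = 0.00301), both without overlap. By its brightest probe Slc16a7 rose by 0.37 ± 0.16 (adjusted p = 0.0454). That call was lost when any of 6 arrays was left out, down to 0.27 without AAKO fed replicate 6. It held in 7 of the 14 other alternatives. From AAKO fed to AAKO fasted livers the mean of A_55_P2743720, which adjoins that probe, went from 1.22 to 1.65. The means of A_55_P2394490 (0.21 to 0.10), A_55_P2173358 (-3.15 to -3.47) and dim A_52_P408736 (-4.66 to -4.86) went down, so the rise was not shared by all probes.

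The difference between the genotypes' fasting responses was called for 3 of the 6 genes, all lower in AAKO (33.9% of all genes). It was -3.27 ± 0.35 for Bdh1 (adjusted p = 2.10e-08), -1.68 ± 0.14 for Acat1 (adjusted p = 2.92e-10) and -0.83 ± 0.18 for Slc16a1 (adjusted p = 0.000450). Acat1 thus rose on fasting in CTRL and fell in AAKO, while Slc16a1 rose in both and by less in AAKO. For Bdh2, Slc16a7 and Slc16a6 it was 0.50 ± 0.28, -0.30 ± 0.23 and 0.64 ± 0.36, not called. Without CTRL fasted replicate 2, that of Slc16a6 was 0.86 ± 0.33 and was called (adjusted p = 0.0366). The Slc16a1 value was -0.94 within wash batch 1 and -0.72 within wash batch 2, where it was not called (adjusted p = 0.0621).

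Between CL316243 and fed mice the experiment, the gavage or vehicle and the agonist cannot be told apart. Slc16a1 was higher in CTRL CL316243 than in CTRL fed livers by 0.93 ± 0.13 (1.90-fold, adjusted p = 2.88e-06), with no overlap. Bdh2 fell by 0.67 ± 0.20 (adjusted p = 0.0127) and Slc16a6 rose by 0.69 ± 0.25 (adjusted p = 0.0460), which made 3 of 6 genes called (23.3% of all genes). The Bdh2 value was -0.71 and -0.63 within the wash batches and was called in neither (adjusted p = 0.125 and 0.203). The Slc16a6 call stood at the threshold: it was lost in 18 of the 36 fits that left out 1 array. Bdh1 was at 0.56 ± 0.24 (adjusted p = 0.0986) although every CTRL CL316243 liver lay above every CTRL fed one. It was called in 1 of 14 alternatives, the limma fit of only these groups (adjusted p = 0.00117). Acat1 was at 0.25 ± 0.10 (adjusted p = 0.0662) and Slc16a7 at -0.36 ± 0.16 (adjusted p = 0.112).

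In AAKO mice CL316243 went with lower Slc16a7, by -1.18 ± 0.16 (2.26-fold, adjusted p = 1.49e-06, no overlap), and lower Bdh2, by -0.73 ± 0.20 (adjusted p = 0.00458). The mean of Slc16a7 probe A_55_P2173358 was near level (-3.15 in AAKO fed, -3.13 in AAKO CL316243 livers). Those of A_55_P2743720 (1.22 to 0.07) and A_55_P2394490 (0.21 to -1.45) went down. The Bdh2 value was -0.99 within wash batch 1 and -0.35 within wash batch 2, where it was not called (adjusted p = 0.543). Wash batch 2 holds only replicates 3 and 4 of AAKO CL316243. No other gene of the 6 was called (31.4% of all genes were), and Slc16a1 was at -0.23 ± 0.13 (95% interval -0.49 to 0.02). The response to CL316243 differed between genotypes for 2 of 6 genes (10.9% of all genes). The difference was -1.16 ± 0.18 for Slc16a1 (adjusted p = 4.18e-05) and -0.82 ± 0.23 for Slc16a7 (adjusted p = 0.0175). For Bdh1 and Acat1 it was -0.75 ± 0.35 and -0.31 ± 0.14 and was not called (adjusted p = 0.182 and 0.172). In a limma fit of only the groups compared that of Bdh1 was -0.78 and was called (adjusted p = 0.00648). Within the wash batches the Slc16a1 value was -1.37 and -0.91, the second not called (adjusted p = 0.0844), and that of Slc16a7 was -0.94 and -0.60, neither called.

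**Figure D3:**
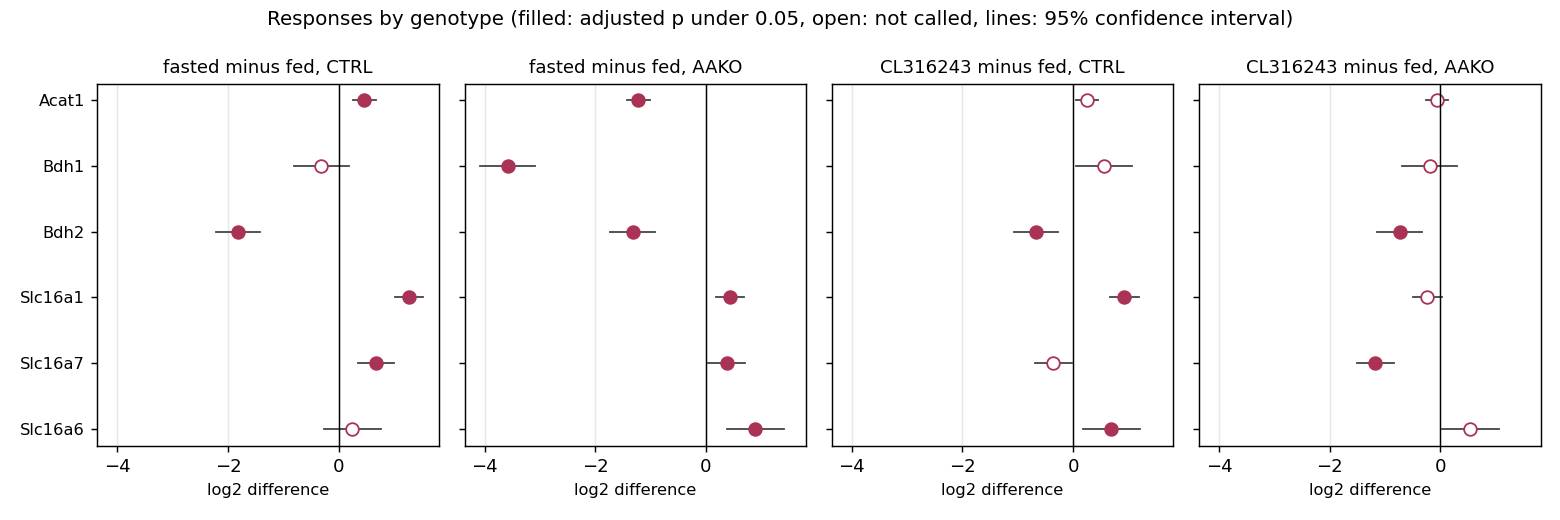
Differences from fed mice of the same genotype on the log2 scale (horizontal axis) after fasting or CL316243, for CTRL and AAKO. Points are estimates, lines 95% confidence intervals and filled points calls at an adjusted p under 0.05. Slc16a1 is filled and above 0 in CTRL after both treatments (1.27 and 0.93), and Bdh1 and Acat1 are far below 0 in fasted AAKO mice (-3.58 and -1.22).

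Fasting and CL316243, which lie in the same experiment, were also compared with each other. In CTRL mice 4 of 6 genes differed (36.8% of all genes). Fasted livers had less Bdh2 (-1.16 ± 0.20, adjusted p = 1.90e-05) and Bdh1 (-0.87 ± 0.24, adjusted p = 0.00507). They had more Slc16a7 (1.04 ± 0.16, adjusted p = 6.06e-06) and Slc16a1 (0.35 ± 0.13, adjusted p = 0.0294). The mean of Slc16a7 probe A_55_P2173358 was near level (-3.22 in fasted livers, -3.18 after CL316243). Those of A_55_P2743720 (2.01 against 0.96) and A_55_P2394490 (0.97 against -0.05) were higher in fasted livers. The Slc16a1 call was lost without any 1 of 6 arrays, with values down to 0.30. It was also lost within each wash batch (0.30 and 0.39, adjusted p = 0.337 and 0.108 in limma). With the median in place of the 75th percentile it was lost as well (0.28, adjusted p = 0.0990). Without CTRL fasted replicate 2 all 6 genes were called, with Acat1 at 0.28 and Slc16a6 at -0.66 beside them, against 33.9% of all genes in that fit.

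In AAKO mice 5 of 6 genes differed between fasting and CL316243 (59.9% of all genes). Bdh1 (-3.39 ± 0.25), Acat1 (-1.16 ± 0.10) and Bdh2 (-0.59 ± 0.20) were lower in fasted livers, and Slc16a7 (1.55 ± 0.16) and Slc16a1 (0.67 ± 0.13) were higher. The mean of Slc16a7 probe A_55_P2173358 was lower in fasted livers (-3.47, against -3.13 after CL316243). Those of A_55_P2743720 (1.65 against 0.07) and A_55_P2394490 (0.10 against -1.45) were higher. Without AAKO fasted replicate 2 the Bdh2 value was -0.45 and was not called (adjusted p = 0.0502). The Bdh2 call was also lost within each wash batch (-0.57 and -0.74, adjusted p = 0.0804 and 0.0686 in limma). With the authors' value table it was lost as well (-0.43, adjusted p = 0.0517). The AAKO difference itself changed between the 2 stimuli for 2 of 6 genes (32.3% of all genes). It was larger in fasted mice by -2.51 ± 0.35 for Bdh1 (adjusted p = 1.78e-06) and by -1.38 ± 0.14 for Acat1 (adjusted p = 1.74e-08). For Slc16a1 the change was 0.33 ± 0.18 (adjusted p = 0.170) and for Slc16a7 0.52 ± 0.23 (adjusted p = 0.0866). For Slc16a6 it was 0.79 ± 0.36 (adjusted p = 0.0927), and 1.02 ± 0.33 and called (adjusted p = 0.0142) without CTRL fasted replicate 2. Without CTRL fasted replicate 3 the count was 4 of 6, with Slc16a6 at 0.93 and Slc16a7 at 0.60 beside Bdh1 and Acat1, against 30.6% of all genes in that fit.

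The order of the groups differed from gene to gene. Bdh1 was highest in CTRL CL316243 (5.74 ± 0.13, SD, n = 6), with no overlap with CTRL fed below it (5.18 ± 0.18). CTRL fed, CTRL fasted, AAKO fed and AAKO CL316243 then overlapped each with the next, and AAKO fasted lay apart at 1.20 ± 0.78. For Acat1 the 3 CTRL groups came first, from 4.48 ± 0.23 in fasted to 4.02 ± 0.13 in fed livers with each overlapping the next, then AAKO fed and AAKO CL316243 (3.74 ± 0.12 and 3.70 ± 0.11, overlapping) and AAKO fasted (2.52 ± 0.24). For Slc16a1 CTRL fasted and CTRL CL316243 overlapped (3.60 ± 0.24 and 3.25 ± 0.12), AAKO fasted stood alone at 2.85 ± 0.18, and AAKO fed, CTRL fed and AAKO CL316243 overlapped at the bottom. For Slc16a7 all neighbours overlapped except CTRL CL316243 (1.04 ± 0.22) and AAKO CL316243 (0.18 ± 0.30). For Bdh2 and Slc16a6 each group overlapped the next in the order.

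The gene lists around the pathway were read in the same fit. Acaa2, a thiolase of beta-oxidation that also acts on short acyl chains, was at -0.73 ± 0.08 in fasted AAKO against CTRL livers (1.66-fold lower, adjusted p = 4.86e-09) and at -0.29 ± 0.08 after CL316243 (adjusted p = 0.00715). Acat3, a thiolase related to Acat1, was at -0.64 ± 0.19 in fasted mice (adjusted p = 0.00482) and was not called after CL316243 (-0.21 ± 0.19).

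Of 15 genes that supply mitochondrial acetyl-CoA from fatty acids, 14 were lower and none higher in AAKO livers, both in fasted mice and after CL316243. The medians were -1.24 and -0.51, and 49.3% and 24.7% of all genes were called in these comparisons. The largest fasted differences were those of Eci1 (-1.76 ± 0.10), Hadh (-1.67 ± 0.12) and Acadm (-1.65 ± 0.09), enzymes of beta-oxidation. The gene not called in fasted mice was Cpt1a (-0.17), the entry step for long-chain fatty acids. After CL316243 it was Etfa (-0.04), an electron transfer subunit, both named after their values were seen. Bdh1 lay below every gene of this list in fasted AAKO mice, a difference that was not tested.

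Of the 6 regulators of ketogenesis, 3 were lower in fasted AAKO livers, among them Fgf21, a fasting hormone (-5.48 ± 0.59), and Creb3l3, a liver transcription factor of the fasting response (-0.80 ± 0.08). Ppargc1a, a coactivator, was higher (0.94 ± 0.24), and 49.3% of all genes were called in this comparison. After CL316243, 4 of the regulators were lower, against 24.7% of all genes called. Among them Fgf21 was at -4.58 ± 0.59, Ppara, the fatty acid receptor, at -1.21 ± 0.13 and Creb3l3 at -0.96 ± 0.08. Of the ketone body use genes, Oxct1 and Aacs were tested. Oxct1, the transferase that opens ketone body oxidation, was higher in AAKO by 1.03 ± 0.22 in fasted mice and 1.30 ± 0.23 after CL316243. Which cells of the liver tissue carried the Oxct1 transcript was not tested. Aacs, which activates acetoacetate in the cytosol, was higher by 1.26 ± 0.31 in fasted mice. Both of these genes fell on fasting in CTRL livers, Aacs by 3.35 ± 0.31 and Oxct1 by 0.73 ± 0.22.

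Among other SLC16 carriers, their chaperones and sodium-coupled carriers, 12 of 15 were tested. In fasted AAKO livers 3 were higher and 4 lower, against 49.3% of all genes called. The largest differences were those of Slc16a13 (-1.76 ± 0.19), the aromatic amino acid carrier Slc16a10 (1.72 ± 0.16) and the chaperone Emb (1.45 ± 0.38). After CL316243, 1 was higher, Slc16a10 (1.08 ± 0.16), and 4 were lower, against 24.7% of all genes called. The lower ones were led by Slc16a13 (-1.28 ± 0.19) and Slc16a12, a creatine carrier (-0.83 ± 0.19). On fasting in CTRL livers Slc16a5 rose by 3.01 ± 0.36 and Slc16a12 fell by 1.06 ± 0.19. Bsg, the chaperone of MCT1, named after its values were seen, was at -0.69 ± 0.13 in fasted AAKO livers (adjusted p = 5.84e-05). Without CTRL fasted replicate 2 the counts in fasted AAKO livers were the same for the acetyl-CoA, regulator and ketone body use genes. In that fit 4 of the other carriers were higher in place of 3, against 51.8% of all genes called.

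**Figure D4:**
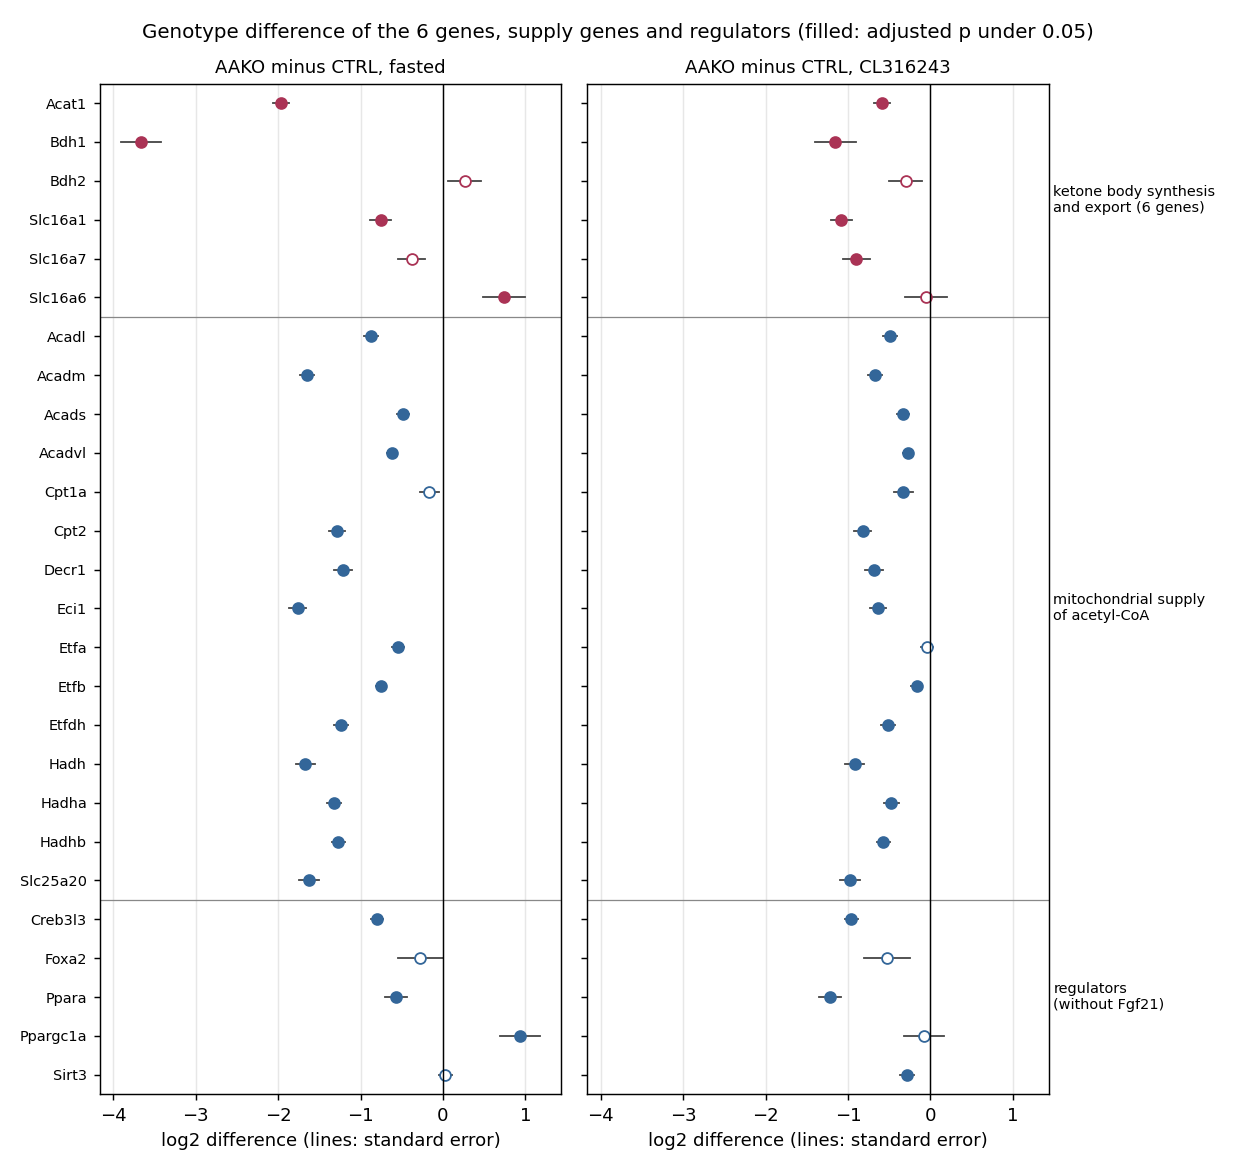
AAKO minus CTRL on the log2 scale (horizontal axis) in fasted and CL316243 mice for the 6 genes, the acetyl-CoA supply genes and the regulators. Points are estimates, lines standard errors and filled points calls at an adjusted p under 0.05. Fgf21 (-5.48 and -4.58) is left out of the plot. In the fasted panel Bdh1 (-3.67) lies to the left of all other genes shown.

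Over the 36 arrays, with the wash batch removed, the 3 genes most like each of the 6 were sought among 24219 others. These correlations describe arrays that share the 6 groups, so they carry no test. Bdh1 was most like Cideb (r = 0.98), a lipid droplet protein gene, Hadh (r = 0.97) and 5033403H07Rik (r = 0.97). Acat1 was most like Eci1 (r = 0.97), Nudt1 (r = 0.96) and Dhrs4 (r = 0.96). After the group means were removed the values for Bdh1 were 0.68, 0.81 and 0.75 and those for Acat1 0.79, 0.43 and 0.58. Slc16a1 was most like the acyl-CoA thioesterase Acot2 (r = 0.93), Rad54b (r = 0.92) and Pex14 (r = 0.91). Slc16a7 was most like Mcrip2 (r = 0.93), the lipid droplet gene Plin5 (r = 0.91) and Cyhr1 (r = 0.91). Bdh2 was most like Inmt (r = 0.92), H2az1 (r = 0.91) and a transcript that the array names by its position (r = 0.90). Slc16a6 had the lowest of these correlations, with Rbm39 (r = 0.80), Ap3d1 (r = 0.78) and Cbll1 (r = 0.76). That order did not hold after the group means were removed. The values were then 0.70, 0.73 and 0.67 for Slc16a6 and 0.52, 0.59 and 0.34 for Slc16a1. For Slc16a7 they were 0.60, 0.58 and 0.54, and for Bdh2 0.69, 0.70 and 0.67. Among the 6 genes the closest pair was Bdh1 and Acat1 (r = 0.90, or 0.52 after the group means were removed), and Bdh1 and Slc16a1 had r = 0.06. With the group means removed the highest value was that of Bdh2 and Slc16a7 (0.645, with r = -0.19 before the removal).

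**Figure D5:**
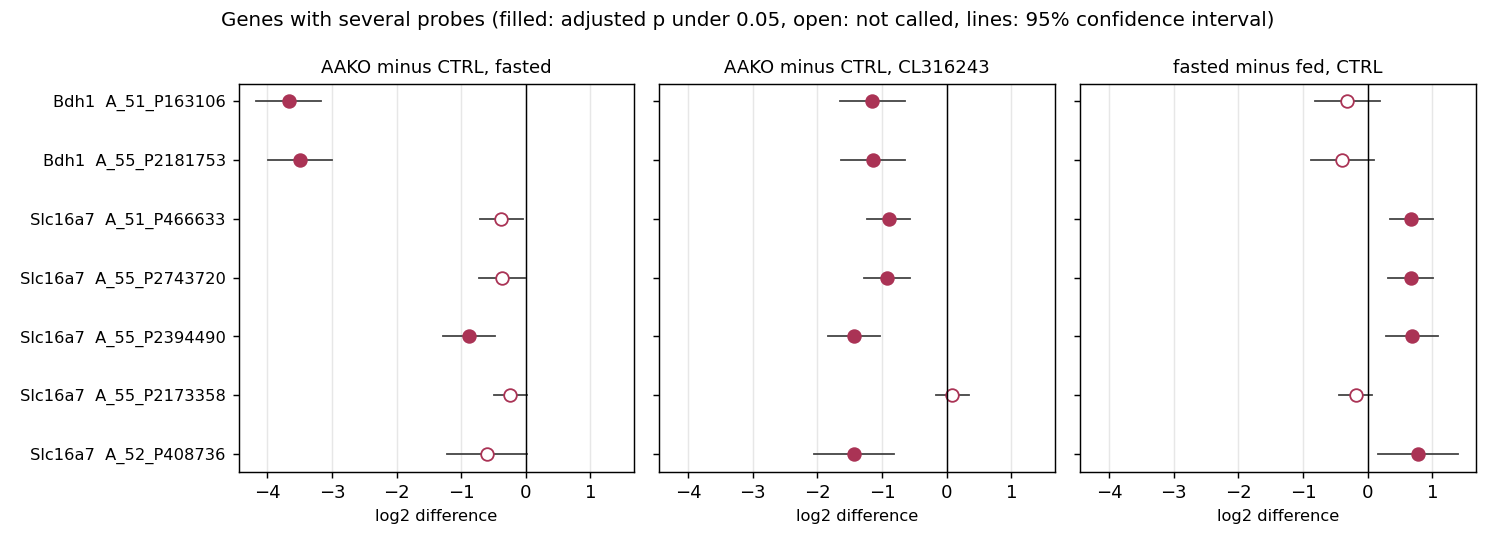
Log2 differences (horizontal axis) by probe for the genes read by several probes, for AAKO minus CTRL in fasted and in CL316243 mice and for fasted minus fed CTRL mice. Points are estimates, lines 95% confidence intervals and filled points calls at an adjusted p under 0.05 over all probes tested. The Bdh1 probes lie together (-3.67 and -3.49 in fasted mice), and A_55_P2173358 of Slc16a7 lies near 0 after CL316243 (0.09) where the other 3 that were well above background on all 36 arrays lie between -1.44 and -0.90. A_52_P408736 was well above background on 26 of 36 arrays, and its points are not measured well.

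RefSeq promoter windows on GRCm38.p6, from 250 bases before to 50 after a start, were at hand for 3 of the 6 genes: 2 for Bdh1 and 1 each for Bdh2 and Slc16a1. Both strands were searched for AGGTCA, a core site of many nuclear receptors, for the same letters repeated directly with 1 base between, for TGACGTCA and for TGACG, which is part of it. These are held by 16.3%, 0.0396%, 1.79% and 20.8% of the 32851 windows in the table. None of the 4 windows of Bdh1, Bdh2 and Slc16a1 held any of them, which says only that these letters are not in these windows.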

How the data were processed

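Liver RNA of 36 mice (200 ng each, per the labels) was read on one-colour Agilent arrays of design 074809 and read out with Feature Extraction (version 10.10.1.1 in the submitters' processing notes and the file headers). Signal intensity was deposited by the authors as background-subtracted processed signal per spot, with marks for spots well above background. The deposited value table holds log2 values that were quantile normalized within each group, as found from the values, and served as an alternative. Of 59305 spots per array other than controls, outlier spots (0.127%) were left out and no spot was saturated. Intensities were turned to log2, the 75th percentile of each array was subtracted, and spots of a probe were averaged. Genes were named by RefSeq accession for 32994 of 56605 probes and by the file's symbol otherwise. A probe was tested where at least 5 of 6 arrays of a group were well above background, and the brightest probe stood for a gene. One limma 3.58.1 model (R 4.3.3) held 6 groups and the wash batch, and gave 12 contrasts with Benjamini-Hochberg adjustment over 24251 genes. It was tested on simulated data.

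Intervals of differences are 95% intervals of the limma fit. With 6 arrays per group their number limits the precision. Each array is 1 mouse, and the labels do not say whether mice shared litters or cages. The text names the 6 genes, at most 3 called genes of a list and comparison with the largest change, and the 3 genes most like each of the 6. Some items of the lists are not reported here. The members and lists were chosen with earlier results of these data known. Alternatives were the background correction, quantile normalization, the median in place of the 75th percentile, the authors' table, filters, the mean of a gene's probes, batch, slide and replicate terms, fewer groups, each wash batch and each array left out. List counts without CTRL fasted replicate 2 were added after seeing the data.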

Additional observations from a re-analysis of the deposited data

Results flagged for a closer look

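Within 5 of the 36 sets of 6 values (6 genes in 6 groups), 1 array lay far from the others by Dixon's test, which chance gives for about 1 set in 20. Bdh1 was lowest in CTRL fasted replicate 2 (3.79), the array that also stood apart over all genes. Bdh2 was lowest in AAKO fed replicate 6 (2.32). Acat1 was highest in CTRL fed replicate 4 (4.27). Slc16a6 was lowest in AAKO fed replicate 3 (0.82) and, in another group, highest in AAKO fasted replicate 6 (2.95).

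The genotypes differed in their response, by the interaction in limma, in 7 cases. For fasting against fed the interaction was -3.27 for Bdh1, -1.68 for Acat1 and -0.83 for Slc16a1, against 33.9% of all genes called. For CL316243 against fed it was -1.16 for Slc16a1 and -0.82 for Slc16a7 (10.9% of all genes). For fasting against CL316243 it was -2.51 for Bdh1 and -1.38 for Acat1. These are 2 of 6 genes, near the share of 32.3% of all genes. Within wash batch 2 the interactions of Slc16a1 and Slc16a7 were not called.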

How the results depend on the processing

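Of 72 differences (6 genes in 12 comparisons), 39 were called, and 23 of these stayed called under all 14 alternatives and with each of 36 arrays left out. Of all genes, between 0.0783% and 63.5% were called in these comparisons. How many calls of all genes stayed called was not recorded, so the 23 cannot be set against the array. No called difference changed sign. Within wash batch 1 and wash batch 2, which hold 19 and 17 arrays, 10 and 13 calls were lost. Of AAKO CL316243, wash batch 2 holds only replicates 3 and 4. The number of the 6 genes called for AAKO against CTRL after CL316243 was 2 within wash batch 2, and for fasted against fed CTRL mice it was 2 within wash batch 1. For CL316243 against fed it was 1 within each wash batch and 5 with only the groups compared in CTRL mice, and 1 within wash batch 2 in AAKO mice. For the interaction of genotype with CL316243 against fed it was 1 within wash batch 1 and 0 within wash batch 2. The interaction of genotype with fasting against CL316243 had between 2 and 4 genes called when 1 array was left out. The 4 came without CTRL fasted replicate 3, against 30.6% of all genes in that fit. For the fits within a batch and those of only the groups compared, the share of all genes called was not recorded. Their counts therefore cannot be set against the array, and they do not show that these genes are less stable than others. A batch holds fewer arrays than the full fit, and the cause of the lost calls was not tested.

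Same-numbered replicates did not deviate together (median correlation 0.00594 over 90 pairs, from -0.201 to 0.259), and 4 of 36 arrays were closest to their own number. With the replicate block Slc16a6 lost its call for CL316243 against fed in CTRL mice (0.69, adjusted p = 0.0664 in limma), and Slc16a7 gained 3 calls, among them AAKO against CTRL in fasted mice (adjusted p = 0.0181). The slide as a random block changed no call. Other scalings moved the median of all genes by at most 0.072 on the log2 scale. Signal over background limits Slc16a7 probe A_52_P408736, well above background on 26 of 36 arrays.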
